A study of Homo sapiens with 6 samples.

Results

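Collagen genes and the enzymes that hydroxylate, trim and crosslink collagen were followed in SCC90 cells after an siRNA against ΔNp63, the form of p63 that basal squamous cells make. The members were all protein-coding genes with a COL symbol of the usual pattern except COL17A1, together with LOX, LOXL1 to LOXL4, PLOD1 to PLOD3, P4HA1 to P4HA3, PCOLCE and PCOLCE2. They came to 56 of the 40488 genes in the table, 43 collagen genes and 13 enzymes or enzyme cofactors. SCC90 cells are an established line grown out of an HPV-positive squamous cell carcinoma of the oropharynx, so every value comes from 1 tumour's cells. The siDNp63 group was 3 libraries from cells given the anti-DeltaNp63 siRNA, and the siCTRL group was 3 libraries from cells given a scrambled siRNA, both at 10 nM for 72 h per the labels, while the study's methods state another concentration. Both groups received the same lipid transfection reagent, and the comparison asks what the loss of ΔNp63 does to the transcripts of this cell line. The sources used here do not say whether the 3 libraries of a group were separate cultures, and a p-value here is set against nothing but the spread among these libraries, which may be technical.

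Collagens are proteins of 3 chains wound into a triple helix. In the endoplasmic reticulum the prolyl 4-hydroxylases (P4HA) stabilise the helix and the lysyl hydroxylases (PLOD) prepare lysines for crosslinks, and outside the cell PCOLCE speeds removal of the procollagen tail and the lysyl oxidases (LOX, LOXL) start the crosslinks. Squamous epithelia rest on a basement membrane whose sheet is made of type IV collagen. Its chains are encoded by 3 pairs of genes that lie head to head and are read away from a shared interval, and type VII collagen makes the anchoring fibrils that fasten this sheet to the tissue beneath.

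Expected counts summed to 35716089 to 52598589 per library after rounding. TP63, the gene the siRNA was aimed at, had, over all its isoforms, 14474 to 15520.1 normalized counts in siDNp63 libraries and 42319 to 44204 in siCTRL libraries (log2 fold change -1.52, edgeR's quasi-likelihood test, adjusted p = 7.59e-07). Normalized counts are counts brought to a common library size by TMM, which uses a trimmed mean of gene-wise log ratios. The 9 markers of squamous epithelium, TP63 among them, summed to 5650 to 5743 TPM (a level per transcript length, on a scale with the same total in every library) in siDNp63 libraries and 4814 to 4866 TPM in siCTRL libraries. KRT6A gave the largest part of these sums, at 3694 TPM in siDNp63 and 3071 TPM in siCTRL. At an edgeR adjusted p under 0.05, 6 of the 9 were higher, TP63 was lower and 2 did not pass. Over all genes tested, 18.4% were higher and 15.2% lower. The basal keratins KRT5 (5.43 TPM in siDNp63, 7.08 TPM in siCTRL) and KRT14 (1.49 TPM in siDNp63, 0.524 TPM in siCTRL) were low in this line. The 12 fibroblast markers include COL1A1, COL1A2 and COL3A1, which are members here. These 12 summed to 6.65 to 10.4 TPM in siDNp63 and 10.4 to 12.0 TPM in siCTRL libraries. PDGFRB, FAP and POSTN were at 0 in every library, while PDGFRA had 1.10 TPM in siDNp63 and 1.23 TPM in siCTRL. Of the 5 with enough counts to be tested, DCN was lower in siDNp63 (log2 fold change -1.32, edgeR adjusted p = 0.0284) and 4 did not pass. The 7 endothelial markers summed to 12.1 to 14.5 TPM in siDNp63 and 3.17 to 4.25 TPM in siCTRL libraries, and none of them was at 0 throughout. KDR (5.15-fold, adjusted p = 1.88e-06), PECAM1 (5.23-fold, 2.4e-05) and VWF (1.84-fold, 0.00264) were higher in siDNp63 (edgeR's quasi-likelihood test). ERG did not pass (log2 fold change -0.16, edgeR adjusted p = 0.569). TEK, CDH5 and CLDN5 had too few counts to be tested, and CDH5 and CLDN5 had at most 6.24 normalized counts in any library. The part of these markers in the collagen values was not tested. The 7 leukocyte markers summed to 11.8 to 12.6 TPM in siDNp63 and 14.8 to 16.3 TPM in siCTRL libraries. On the second principal component of all genes, siDNp63 replicate 1 (39.1) stood apart from siDNp63 replicates 2 and 3 (-25.6 and -24.8). Calls that change without siDNp63 replicate 1 are given with both adjusted p values.

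Collagen transcripts changed in both directions after the ΔNp63 siRNA. The epithelial type IV chains COL4A5 and COL4A6, the anchoring fibril collagen COL7A1 and the multiplexin COL15A1 fell, while COL4A1, COL4A3, COL4A4, COL6A1 and COL8A1 rose. Of the 56 members, 39 passed the filter on low counts and were tested, and at an adjusted p under 0.05 (edgeR's quasi-likelihood test) 8 were higher and 6 lower in siDNp63. Over all 17257 genes tested, 18.4% were higher and 15.2% lower by the same rule, 33.6% together, so the 8 and 6 of 39 lie close to the background share. With scaling by library size alone, 7 members were higher (P4HA1 was lost) and 13 lower (COL9A2, COL12A1, COL25A1, LOXL3, LOXL4, PLOD1 and PLOD2 were gained), and over all genes the higher share of calls was 36.1%, against 54.7% with TMM. Without siDNp63 replicate 1, 11 members were higher and 9 lower, the 14 calls among them, and leaving out any other library gave 11 to 14 calls in all. An absolute log2 fold change over 1 as well was reached by COL6A1 and COL8A1 upward and by COL4A6 and COL7A1 downward, 2 and 2 of 39, against 2.35% upward and 1.71% downward and 4.06% together of all genes. Among the 39, the median log2 fold change was 0.04, beside -0.02 over all genes. Groups did not overlap for 26 of them, against 49.4% of all genes (24.7% in each direction). These RNA levels are averages over a culture, so fewer cells making a transcript and less of it per cell cannot be told apart.

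**Figure D1:**
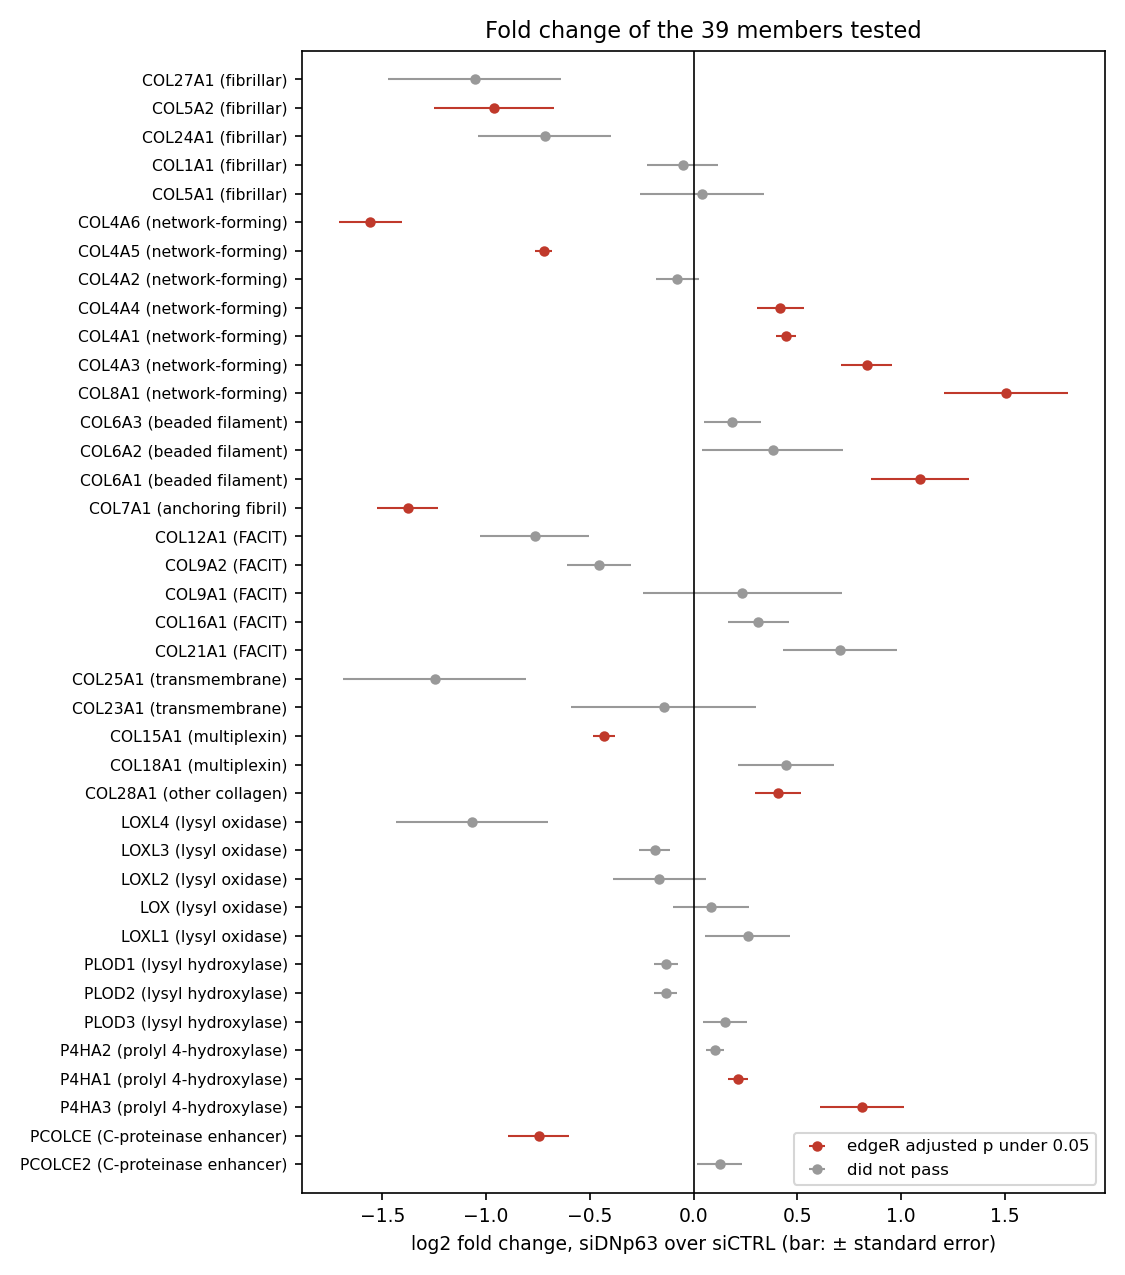
Log2 fold change of siDNp63 over siCTRL for the 39 members that passed the count filter, ordered by role, with bars for 1 standard error of edgeR's quasi-likelihood fit. Members at an adjusted p under 0.05 are drawn in red and the others in grey, 8 to the right of the zero line and 6 to the left, with COL4A6 (-1.56) and COL8A1 (1.5) at the ends of these calls.

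The 17 members that failed the filter had at most 16 counts in any library. COL1A2 reached 16 counts, COL10A1 14, COL14A1 and COL19A1 12, COL5A3 and COL6A6 9, COL2A1 6, COL13A1 and COL26A1 4, and COL8A2 3. COL9A3 and COL20A1 reached 2 counts, as did COL11A2, and COL3A1, COL6A5, COL11A1 and COL22A1 reached 1. Of all members, 1 had TPM values identical to those of another gene identifier. The interstitial collagens COL1A2 and COL3A1, which fibroblasts make in bulk, were thus at or near the floor of detection in both groups. Some of the 39 passed through 1 group mainly: COL27A1 had 10 or more counts in 0 of 3 siDNp63 and 3 of 3 siCTRL libraries, and LOXL4 and COL25A1 in 1 of 3 siDNp63 and 3 of 3 siCTRL libraries, and none of these was called.

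Levels per transcript length put the enzymes of lysine hydroxylation first. PLOD1 was the highest member in both groups, at 144 ± 6.59 TPM in siDNp63 and 154 ± 2.56 TPM in siCTRL, and PLOD2 the next. Among the collagens COL4A5 and COL15A1 led in both groups, at 55.2 ± 5.85 and 58.4 ± 3.57 TPM in siDNp63, where their ranges overlapped, and at 94.3 ± 6.06 and 82.8 ± 3.50 TPM in siCTRL, where COL4A5 was higher in every library (SD, n = 3). COL7A1 came next among the collagens of siCTRL cells and lay below COL4A2 and COL4A1 in siDNp63 cells. The 43 collagen genes summed to 186, 197 and 203 TPM in siDNp63 replicates 1 to 3 and to 276, 281 and 268 TPM in siCTRL replicates 1 to 3. All siDNp63 sums lay below all siCTRL sums, which gives the smallest p that 3 against 3 libraries allow (exact permutation test, two-sided, p = 0.1, 0.13 after adjustment over 12 such measures). These sums are ruled by a few abundant genes. COL4A5 and COL15A1 gave 58.2% of the sum in siDNp63 and 64.4% in siCTRL, and both fell. COL7A1 averaged 13 TPM in siDNp63 and 33.7 TPM in siCTRL. Of the 26 collagens tested, 13 had a positive and 13 a negative log2 fold change. The lower sum is thus not a drop shared by the collagen genes at large. The 13 enzymes summed to 407.5 ± 21.2 TPM in siDNp63 and 428.3 ± 8.02 TPM in siCTRL, and these groups overlapped (exact permutation test, p = 0.3, adjusted 0.33).

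**Figure D2:**
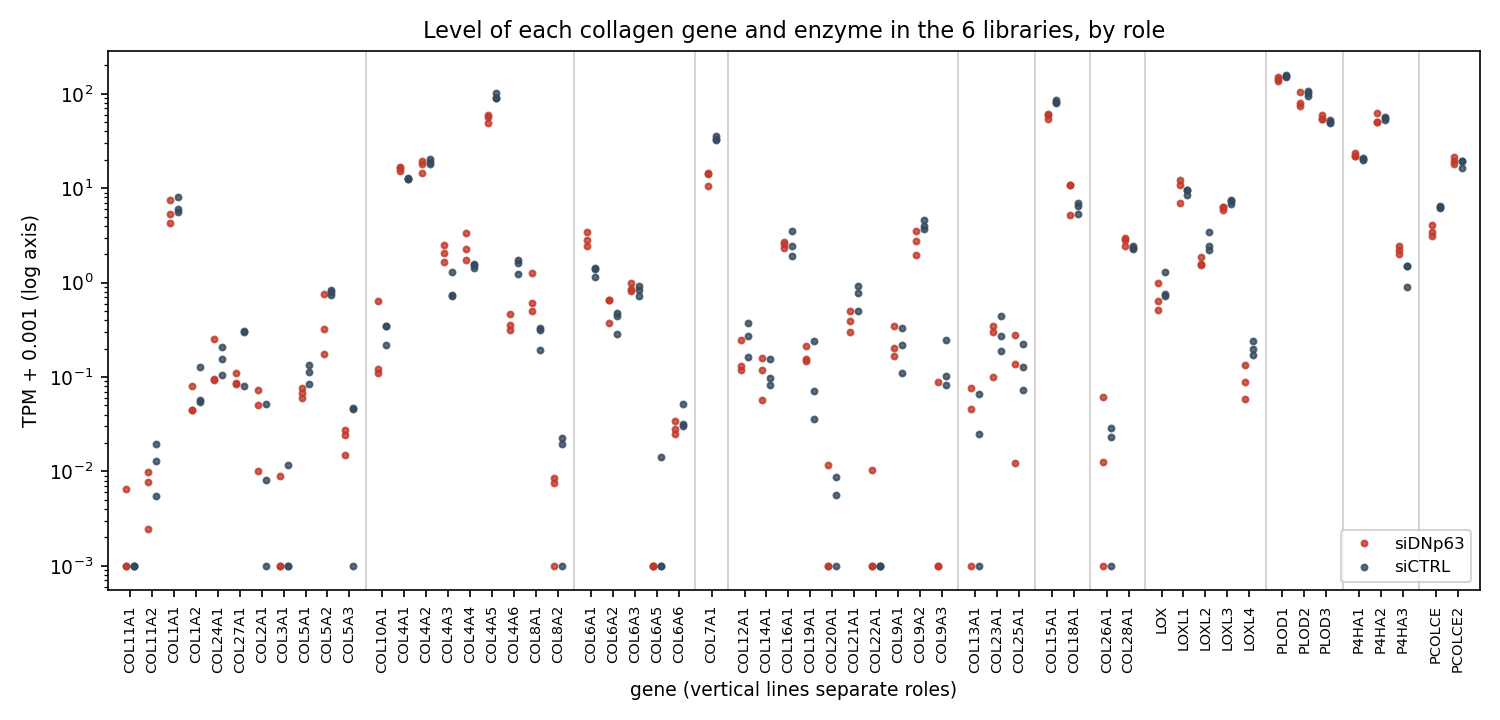
Level of every member in each library as TPM plus 0.001 on a log axis, grouped by role, with siDNp63 points left of siCTRL points and members listed at 0 drawn at 0.001. PLOD1, PLOD2, COL4A5 and COL15A1 lie at the top, and COL1A2, COL2A1 and COL3A1 lie far below them in both groups.

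Type IV collagen is the network collagen of basement membranes, and the intervals between its paired genes are shown because the results turn on how the genes of a pair moved. The sequences are from RefSeq (GRCh38.p14) and run 5′ to 3′ on the strand given. Capitals mark 3 kinds of motif, searched on both strands, and no marked motif overlaps another. The GC box was searched as GGGCGG. The CCAAT box was searched by the letters of its name. The TATA box was searched as TATAAA. The last sequence is the 250 bases before the start of COL7A1, shown because COL7A1 fell the most among the abundant members.
COL4A1-COL4A2 interval: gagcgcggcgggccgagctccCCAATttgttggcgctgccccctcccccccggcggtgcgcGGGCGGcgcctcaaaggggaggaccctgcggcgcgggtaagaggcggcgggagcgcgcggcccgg
COL4A4-COL4A3 interval: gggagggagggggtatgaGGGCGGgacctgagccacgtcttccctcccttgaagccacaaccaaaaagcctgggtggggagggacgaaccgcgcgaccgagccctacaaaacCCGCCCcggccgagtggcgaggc
COL4A5 upstream: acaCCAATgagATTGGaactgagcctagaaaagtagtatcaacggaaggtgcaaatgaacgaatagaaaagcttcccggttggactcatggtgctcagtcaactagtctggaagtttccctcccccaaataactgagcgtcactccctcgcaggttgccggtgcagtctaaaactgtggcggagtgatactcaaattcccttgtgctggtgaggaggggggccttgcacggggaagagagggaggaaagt
COL7A1 upstream: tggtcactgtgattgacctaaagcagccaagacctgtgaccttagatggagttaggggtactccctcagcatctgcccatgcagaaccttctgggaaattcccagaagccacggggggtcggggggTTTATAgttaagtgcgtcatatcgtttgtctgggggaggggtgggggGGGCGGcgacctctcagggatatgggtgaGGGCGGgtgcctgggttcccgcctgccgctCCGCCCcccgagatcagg
The COL4A1-COL4A2 interval covers chr13:110307158-110307283 on the plus strand, 126 bases with 80.2% G and C. It holds 1 GC box and 1 CCAAT box. The COL4A4-COL4A3 interval covers chr2:227164489-227164623 on the plus strand, 135 bases with 68.1% G and C and 2 GC boxes. By RefSeq, 379 bases lie between the starts of COL4A6 and COL4A5. The 250 of these next to COL4A5, chrX:108439588-108439837 on the plus strand, have 51.2% G and C and 2 CCAAT boxes. All these intervals use RefSeq starts, from which the GENCODE coordinates given below differ for some genes. In GENCODE, COL4A2 (chr13:110305812-110513209) begins inside COL4A1, so by those coordinates no interval separates that pair. The COL7A1 stretch is chr3:48595330-48595579 on the minus strand, with 60.8% G and C, 3 GC boxes and 1 TATA box. Of 35116 RefSeq promoter windows of 300 bases, 45% held a GC box, 34.6% a CCAAT box and 11.5% a TATA box, and of the 57 windows of the 42 members matched, 56.1%, 28.1% and 14% did. One strict form of a paired p63 core (CATGNNNNNNCATG, where N is any base) was in 0 of these 57 windows and in 0.373% of all windows. A form this rare cannot show whether these windows hold p63 sites. The matches describe the letters only.

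COL4A5 and COL4A6 encode the α5 and α6 chains, which epithelial basement membranes contain, and both fell. COL4A5 (chrX:108439838-108697545) had 9263, 8574 and 8979 normalized counts in siDNp63 replicates 1 to 3, against 14564, 14867 and 14812 in siCTRL replicates 1 to 3. All siDNp63 libraries were below all siCTRL libraries, at 0.606 times the siCTRL level (log2 fold change -0.72, SE 0.04, edgeR adjusted p = 1.1e-05). Its partner COL4A6 (chrX:108155607-108439497) had 60.2, 83.0 and 64.9 normalized counts in siDNp63, against 215, 204 and 197 in siCTRL. COL4A6 was thus far less abundant than COL4A5 and was lower in all siDNp63 libraries, at 0.340 times the siCTRL level (log2 fold change -1.56, SE 0.15, edgeR adjusted p = 1.8e-04). Within each library the log2 ratio of COL4A5 over COL4A6 was 7.27, 6.69 and 7.11 in siDNp63 and 6.08, 6.19 and 6.23 in siCTRL. The ratio did not overlap between the groups, so the rarer gene of the pair had the larger proportional drop (exact permutation test, p = 0.1, the smallest possible, adjusted 0.13).

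COL4A3 and COL4A4 encode the α3 and α4 chains, best known from the glomerulus, lung and cochlea, and both rose while staying at a low level. COL4A3 (chr2:227164624-227314792) had 287, 247 and 232 normalized counts in siDNp63, against 138, 154 and 137 in siCTRL. The groups did not overlap, and the siDNp63 level was 1.78 times that of siCTRL (log2 fold change 0.83, SE 0.12, edgeR adjusted p = 0.00138). On the opposite strand MFF-DT shares 6.82% of the exonic bases of COL4A3, and reads there cannot be told apart. COL4A4 (chr2:227002714-227164453) had 599, 469 and 567 normalized counts in siDNp63, against 372, 428 and 422 in siCTRL. The groups did not overlap there either, with a smaller difference (log2 fold change 0.42, SE 0.11, edgeR adjusted p = 0.0227). The COL4A4 call was lost without siDNp63 replicate 3 (edgeR adjusted p = 0.0758), siCTRL replicate 1 (0.0826) or siCTRL replicate 3 (0.0552), and its adjusted p ran between 0.0069 and 0.113 over all alternatives. The log2 ratio of COL4A3 over COL4A4 was -1.06, -0.92 and -1.29 in siDNp63 and -1.43, -1.48 and -1.62 in siCTRL, again without overlap (exact permutation test, p = 0.1, adjusted 0.13). Per transcript length COL4A3 averaged 2.06 ± 0.424 TPM in siDNp63 and 0.915 ± 0.319 TPM in siCTRL, and COL4A4 2.47 ± 0.842 TPM in siDNp63 and 1.51 ± 0.065 TPM in siCTRL (SD, n = 3).

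COL4A1 and COL4A2 encode the α1 and α2 chains that nearly every basement membrane contains, and COL4A1 rose while COL4A2 did not pass the test. COL4A1 (chr13:110148963-110307157) had 2896, 3195 and 3154 normalized counts in siDNp63, against 2271, 2259 and 2271 in siCTRL. All siDNp63 libraries were higher, by 1.36-fold (log2 fold change 0.44, SE 0.05, edgeR adjusted p = 2.72e-04). COL4A2 had 2079.7, 2715 and 2828 normalized counts in siDNp63, against 2666, 2731 and 2677 in siCTRL. Here siDNp63 replicate 1 was below every siCTRL library and replicate 3 above, and the test was not passed (log2 fold change -0.08, SE 0.10, edgeR adjusted p = 0.596). Without siDNp63 replicate 1 the COL4A2 value was 0.04 (edgeR adjusted p = 0.328), and its adjusted p over all alternatives ran between 0.28 and 0.741. The log2 ratio of COL4A1 over COL4A2 was 0.48, 0.23 and 0.16 in siDNp63 and -0.23, -0.27 and -0.24 in siCTRL. COL4A1 counts thus exceeded those of COL4A2 in all siDNp63 libraries and in no siCTRL library (exact permutation test, p = 0.1, adjusted 0.13). Counts grow with transcript length, and per transcript length COL4A1 led only in siDNp63 replicate 1 (15.2 against 14.6 TPM). COL4A1 averaged 16.1 TPM in siDNp63 and 12.7 TPM in siCTRL. COL4A2 averaged 17.3 TPM in siDNp63 and 19.1 TPM in siCTRL.

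The summed level and the make-up of type IV collagen differed without overlap, in a design too small for p under 0.05. Its 6 genes summed to 96.2, 87.0 and 97.1 TPM in siDNp63 and to 126, 138 and 126 TPM in siCTRL. All siDNp63 sums were lower. COL4A5 and COL4A6 gave 59.3% ± 3.30 of this sum in siDNp63 and 73.7% ± 0.479 in siCTRL (SD, n = 3). COL4A1 and COL4A2 gave 35.8% ± 4.46 in siDNp63 and 24.5% ± 0.598 in siCTRL, and COL4A3 and COL4A4 gave 4.82% ± 1.16 in siDNp63 and 1.86% ± 0.156 in siCTRL. None of these shares overlapped between the groups (exact permutation tests, p = 0.1 each, adjusted 0.13), and shares of 1 sum are not independent of each other. COL4A5, the largest part of the sum, averaged 55.2 TPM in siDNp63 and 94.3 TPM in siCTRL. A lower COL4A5 by itself raises the shares of the other pairs. COL4A1 averaged 16.1 TPM in siDNp63 and 12.7 TPM in siCTRL, and COL4A2 17.3 TPM in siDNp63 and 19.1 TPM in siCTRL. The share of all collagen TPM that came from type IV genes was 47.9% ± 3.80 in siDNp63 and 47.2% ± 1.71 in siCTRL, and these overlapped (exact permutation test, p = 0.9).

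**Figure D3:**
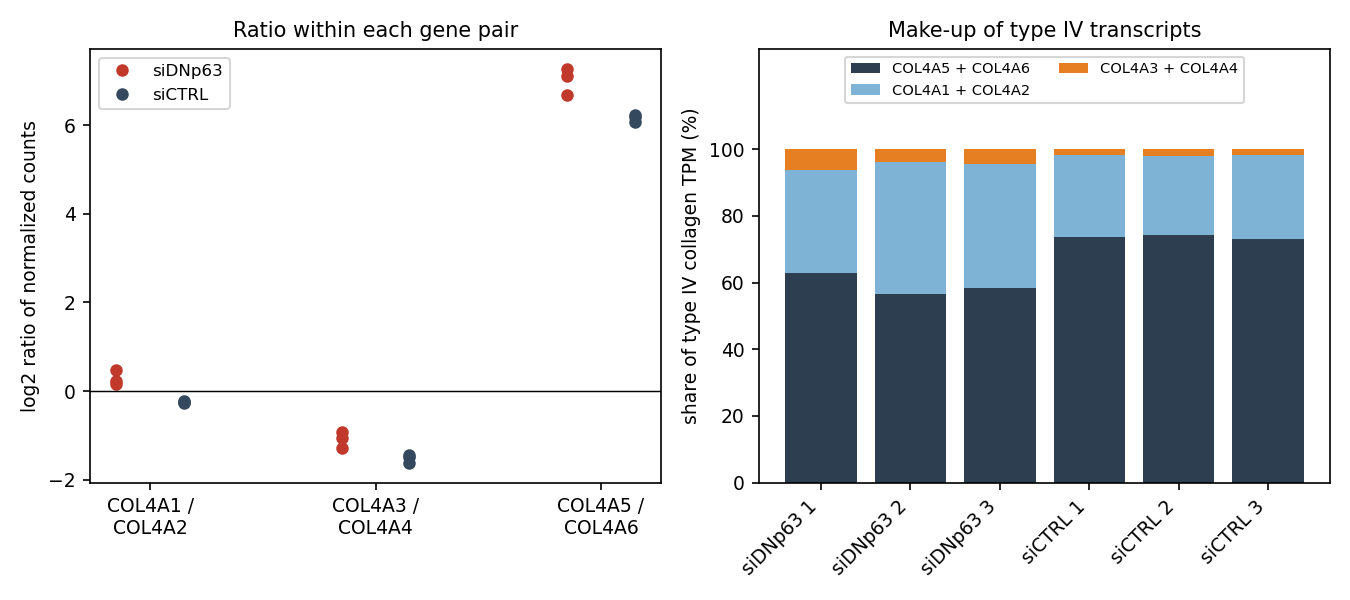
Left, the log2 ratio of normalized counts within each head-to-head pair of type IV genes, 1 point per library. Right, the percentage of summed type IV TPM from each pair in each library, with siDNp63 libraries left of siCTRL libraries, where COL4A5 and COL4A6 make up 56.6% to 63% in siDNp63 and 73.2% to 74.2% in siCTRL.

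COL8A1, the chain of a short network collagen known from vessel walls and the cornea, had the largest rise among the members called. It had 84.5, 51.4 and 55.3 normalized counts in siDNp63, against 16.5, 29.1 and 21.4 in siCTRL. The groups did not overlap, and siDNp63 was 2.84-fold higher (log2 fold change 1.5, SE 0.30, edgeR adjusted p = 0.00626), with replicate 1 the highest. Of the 9 network collagens 7 were tested, 4 rose, 2 fell and COL4A2 did not pass, beside 18.4% higher and 15.2% lower over all genes.

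COL7A1, the single gene of anchoring fibrils, fell. COL7A1 (chr3:48564073-48595329) had 1172, 1662 and 1878 normalized counts in siDNp63, against 3935, 4251 and 4117 in siCTRL. The groups were far apart, with siDNp63 at 0.385 times the siCTRL level and replicate 1 the lowest of all (log2 fold change -1.38, SE 0.15, edgeR adjusted p = 2.73e-04). By length-scaled level COL7A1 was 13 ± 2.23 TPM in siDNp63 and 33.7 ± 1.81 TPM in siCTRL (SD, n = 3).

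The multiplexins COL15A1 and COL18A1 belong to the basement membrane zone, and COL18A1 is the precursor of endostatin. COL15A1 (chr9:98943179-99070792) had 7876, 8934 and 8513 normalized counts in siDNp63, against 11753, 11259.7 and 11150.3 in siCTRL. It was lower in all siDNp63 libraries, at 0.741 times the siCTRL level (log2 fold change -0.43, SE 0.05, edgeR adjusted p = 5.55e-04). COL18A1 had 390.3, 749.9 and 746 normalized counts in siDNp63, against 508, 425 and 457 in siCTRL. siDNp63 replicate 1 was the lowest library of all and replicates 2 and 3 the highest, and the test was not passed (log2 fold change 0.44, SE 0.23, edgeR adjusted p = 0.178). Without siDNp63 replicate 1 the COL18A1 log2 fold change was 0.69 (edgeR adjusted p = 7e-04, range over all alternatives 7e-04 to 0.424). On the opposite strand SLC19A1 shares 18.5% of the exonic bases of COL18A1, and since the study's methods name kallisto's default options, which do not use strand, reads of such overlapping genes cannot be told apart.

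Type VI collagen forms beaded filaments of α1, α2 and α3 chains, and of its tested genes COL6A1 rose while COL6A2 and COL6A3 did not pass. COL6A1 had 189, 376 and 306 normalized counts in siDNp63, against 154, 125 and 132 in siCTRL. The groups did not overlap, with replicate 1 the lowest of the siDNp63 libraries (2.13-fold, log2 fold change 1.09, SE 0.24, edgeR adjusted p = 0.00927). COL6A3 had 169, 161 and 193 normalized counts in siDNp63 against 134, 172 and 154 in siCTRL. COL6A2 had 12.8, 24.8 and 18.1 in siDNp63 against 11.3, 15.6 and 16.9 in siCTRL. Both overlapped between groups, with log2 fold changes of 0.19 and 0.38.

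**Figure D4:**
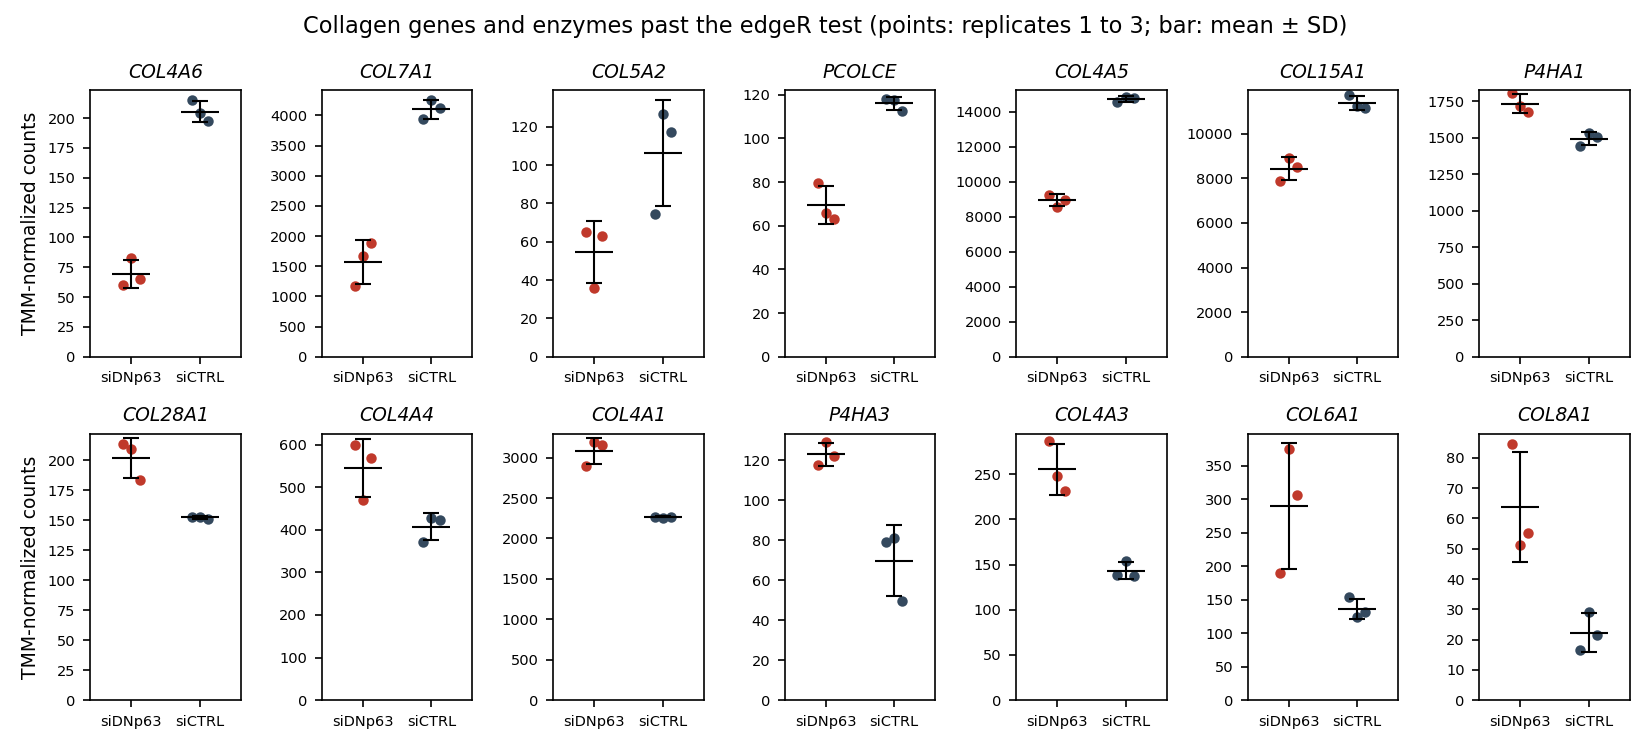
TMM-normalized counts of the 14 members at an adjusted p under 0.05, 1 panel per gene with its own axis, with points for the 3 siDNp63 libraries at the left and the 3 siCTRL libraries at the right and bars for the mean ± SD. The groups overlap in none of the panels. Among the genes with a wide spread within a group are COL6A1 (290.4 ± 94.2 in siDNp63), COL5A2 (106 ± 27.8 in siCTRL) and COL8A1 (63.7 ± 18.1 in siDNp63).

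Fibrillar collagens, the ropes of the interstitial matrix, were low, and of 11 genes 5 were tested, 1 fell and 4 did not pass. COL5A2 had 65.3, 36 and 62.9 normalized counts in siDNp63, against 74.6, 127 and 117 in siCTRL. The groups did not overlap but lay close at siCTRL replicate 1 (log2 fold change -0.96, SE 0.29, edgeR adjusted p = 0.0357). Without siDNp63 replicate 1 the log2 fold change of COL5A2 was -1.10 (adjusted p = 0.0304), past both thresholds. The COL5A2 call was lost without siDNp63 replicate 2 (edgeR adjusted p = 0.0827), siDNp63 replicate 3 (0.0636), siCTRL replicate 2 (0.121) or siCTRL replicate 3 (0.111), with a range of 0.0169 to 0.137 over all alternatives. COL1A1, the main chain of type I collagen, had 203, 335 and 294 normalized counts in siDNp63 against 299, 283 and 285 in siCTRL. COL24A1 had 16.6, 15.4 and 18.1 in siDNp63 against 26.0, 18.7 and 38.3 in siCTRL. COL1A1 overlapped between the groups (log2 fold change -0.05, edgeR adjusted p = 0.839), and COL24A1 did not overlap but missed the threshold (-0.72, adjusted p = 0.125). The 2 others, COL5A1 and COL27A1, had log2 fold changes of 0.04 and -1.05 and did not pass, and COL27A1 passed without siCTRL replicate 2 (-1.33, edgeR adjusted p = 0.0483, range over all alternatives 0.0483 to 0.321). The 11 fibrillar genes summed to 6.59 ± 1.30 TPM in siDNp63 and 7.94 ± 1.38 TPM in siCTRL (exact permutation test, p = 0.3, adjusted 0.33). Most of this sum was COL1A1, at 5.74 ± 1.63 TPM in siDNp63 and 6.52 ± 1.28 TPM in siCTRL.

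The FACIT collagens, which sit on the surface of fibrils, gave no call in 5 tested of 10. COL9A2 had 155, 223 and 217 normalized counts in siDNp63 against 296, 266 and 258 in siCTRL. COL16A1 had 92.1, 85.6 and 92.5 in siDNp63 against 76.3, 65.5 and 75.5 in siCTRL. COL12A1 had 21.8, 13.7 and 20 in siDNp63 against 33.0, 31.2 and 29.3 in siCTRL. None of these 3 overlapped between groups, but their edgeR adjusted p values were 0.0521, 0.14 and 0.0558 (log2 fold changes -0.46, 0.31 and -0.77). Without siDNp63 replicate 1, COL12A1 (-0.89, adjusted p = 0.0452) and COL9A2 (-0.31, adjusted p = 0.0451) passed, as COL9A2 did without siDNp63 replicate 2 (-0.55, adjusted p = 0.0491). Over all alternatives the adjusted p of COL9A2 ran between 0.0313 and 0.176 and that of COL12A1 between 0.0266 and 0.31. COL9A1 had a log2 fold change of 0.24. COL21A1 averaged 21.6 normalized counts in siDNp63 and 13.1 in siCTRL (log2 fold change 0.70, edgeR adjusted p = 0.0868) but 0.394 TPM in siDNp63 and 0.732 TPM in siCTRL, since the transcript length behind its counts was 2.96 times as long in siDNp63.

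Of the transmembrane collagens, COL23A1 had 7.68, 20.5 and 21.9 normalized counts in siDNp63 against 26.9, 12.5 and 16.9 in siCTRL, with overlap. COL25A1 had 2.56, 7.70 and 9.54 in siDNp63 against 13, 19.8 and 16.9 in siCTRL, without overlap, but the test was not passed (log2 fold change -1.25, edgeR adjusted p = 0.0632). COL25A1 passed with scaling by library size alone (-1.33, adjusted p = 0.0486, range over all alternatives 0.0486 to 0.882). COL28A1, a collagen with von Willebrand factor domains, rose. It had 214, 209 and 183 normalized counts in siDNp63, against 153, 153 and 151 in siCTRL. The siDNp63 libraries were all higher (log2 fold change 0.41, SE 0.11, edgeR adjusted p = 0.0232), but the COL28A1 call was lost without siDNp63 replicate 2 (adjusted p = 0.0672) or any 1 siCTRL library (0.068, 0.0667 and 0.0704 without replicates 1, 2 and 3), with a range of 0.0219 to 0.337 over all alternatives.

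Of the 13 enzymes, all of them tested, 2 rose, 1 fell and 10 did not pass, a share no higher than that of all genes (18.4% higher and 15.2% lower). P4HA1 and P4HA3, catalytic subunits of the prolyl 4-hydroxylase that stabilises the helix, rose. P4HA1 had 1806, 1715 and 1677 normalized counts in siDNp63, against 1445, 1532 and 1505 in siCTRL. P4HA3 had 118, 129 and 122 in siDNp63, against 79.0, 81.1 and 49.6 in siCTRL. Neither gene overlapped between groups. The log2 fold changes were 0.21 for P4HA1 (SE 0.05, edgeR adjusted p = 0.0121) and 0.81 for P4HA3 (SE 0.20, adjusted p = 0.0162). On the opposite strand PPME1, at a mean of 32.4 TPM, shares 4.16% of the exonic bases of P4HA3, and reads there cannot be told apart. The P4HA1 call was lost with scaling by library size alone (0.13, edgeR adjusted p = 0.0581) and with limma on log2(TPM + 0.1) (0.13, adjusted p = 0.19), within a range of 0.00474 to 0.19 over all alternatives. P4HA2, the most abundant of the 3, had 3034, 2811 and 2874 in siDNp63 against 2637, 2761 and 2723 in siCTRL and did not pass (log2 fold change 0.10, edgeR adjusted p = 0.111), although the groups did not overlap.

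The lysyl hydroxylases did not pass. PLOD1 had 8976, 10492 and 9860.1 normalized counts in siDNp63 against 10839.9, 10833 and 10529.6 in siCTRL. PLOD2, which prepares the lysines of the telopeptides, had 7945, 6898 and 7280.4 in siDNp63 against 7969.8, 8050.4 and 8252 in siCTRL. PLOD3, which also glycosylates hydroxylysine, had 1953, 2601 and 2605 in siDNp63 against 2148, 2231 and 2082 in siCTRL. PLOD1 and PLOD2 lay lower in all siDNp63 libraries without passing (log2 fold change -0.13 each, edgeR adjusted p = 0.112 and 0.0976), and PLOD3 overlapped (0.15, adjusted p = 0.314). Without siDNp63 replicate 1, PLOD2 (-0.19, edgeR adjusted p = 0.00647) and PLOD3 (0.28, adjusted p = 0.0011) passed, and without siDNp63 replicate 2 PLOD1 did (-0.19, adjusted p = 0.0302). Over all alternatives the adjusted p ran between 0.0263 and 0.269 for PLOD1, 0.00647 and 0.233 for PLOD2 and 0.0011 and 0.678 for PLOD3.

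Of the lysyl oxidases, LOXL3 had 436, 484 and 463 normalized counts in siDNp63 against 539.6, 525 and 513 in siCTRL. LOXL1 had 97.3, 165 and 158 in siDNp63 against 126, 116 and 110.4 in siCTRL. LOX had 84.5, 77.0 and 105 in siDNp63 against 96.3, 72.8 and 82.2 in siCTRL. LOXL3 did not overlap but missed the threshold (log2 fold change -0.19, edgeR adjusted p = 0.09), and LOXL1 and LOX overlapped (0.26 and 0.08). HTRA2 shares 20.7% of the exonic bases of LOXL3 on the opposite strand, and reads there cannot be told apart. LOXL1 had an edgeR adjusted p of 0.372 with all libraries. It passed without siDNp63 replicate 1 (0.46, edgeR adjusted p = 0.0192, range over all alternatives 0.0192 to 0.777). LOXL2 had a log2 fold change of -0.17. LOXL4 had one of -1.07, at means of 9.43 normalized counts in siDNp63 and 19.7 in siCTRL (edgeR adjusted p = 0.0569), and passed without siDNp63 replicate 3 (-1.42, adjusted p = 0.0432, range 0.0412 to 0.181).

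PCOLCE, the enhancer of the proteinase that trims the procollagen tail, fell, and its relative PCOLCE2 did not pass. PCOLCE had 79.3, 65.9 and 62.9 normalized counts in siDNp63, against 118, 118 and 113 in siCTRL. All siDNp63 libraries were lower (log2 fold change -0.75, SE 0.15, edgeR adjusted p = 0.00595), and the antisense gene PCOLCE-AS1 shares 16.8% of the exonic bases, where reads of either gene cannot be told apart. PCOLCE2 had 462, 429 and 381 in siDNp63 against 414, 401 and 348 in siCTRL, with overlap (log2 fold change 0.13, edgeR adjusted p = 0.414).

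Among 44 other genes of collagen folding, transport, processing, binding and basement membrane assembly, 38 were tested, 9 rose, 6 fell and 23 did not pass, with a median log2 fold change of -0.06 beside -0.02 over all genes. The 9 and 6 of 38 lie near the shares of all genes (18.4% higher and 15.2% lower). P3H2, a prolyl 3-hydroxylase that in mice acts on type IV collagen, was the only 1 of the 15 with an absolute log2 fold change over 1. P3H2 had 644, 559.8 and 555 normalized counts in siDNp63, against 187, 189 and 199 in siCTRL. The siDNp63 libraries were all far higher (log2 fold change 1.61, SE 0.09, edgeR adjusted p = 1.32e-05). The other genes for making and exporting collagen that rose were SEC24D (0.36) and TMED2 (0.27) of vesicle transport and the hydroxylysine galactosyltransferases COLGALT1 (0.26) and COLGALT2 (0.14), while FKBP14 (-0.30) and CRTAP (-0.15) of the folding machinery and the procollagen proteinase BMP1 (-0.35) fell. SERPINH1, the collagen chaperone HSP47, had a log2 fold change of -0.16 and did not pass (edgeR adjusted p = 0.075), though it passed without siDNp63 replicate 2 (-0.20, adjusted p = 0.0452, range over all alternatives 0.0207 to 0.227).

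Of the collagen receptors, ITGA1, ITGA2 and ITGB1, which together form the α1β1 and α2β1 integrins, and DDR1 rose by small amounts (log2 fold changes 0.19, 0.32, 0.28 and 0.20). MRC2, the endocytic receptor that takes up collagen fragments, fell. MRC2 had 668, 1004 and 978 normalized counts in siDNp63, against 1744, 1644 and 1688 in siCTRL. The groups did not overlap, and replicate 1 was the lowest (log2 fold change -0.93, SE 0.14, edgeR adjusted p = 0.00144). Of the partners of type IV collagen, nidogen NID1 (-0.29) and peroxidasin PXDN (-0.18), which forms sulfilimine crosslinks, fell, while perlecan HSPG2 and agrin AGRN did not pass. MIA2, which helps load collagen into vesicles, had a log2 fold change of -0.06 (edgeR adjusted p = 0.486) and passed without siDNp63 replicate 1 (-0.12, adjusted p = 0.0214, range over all alternatives 0.0214 to 0.873). AGRN had a log2 fold change of 0.07 (edgeR adjusted p = 0.679). It passed without siDNp63 replicate 1 (0.20, edgeR adjusted p = 0.0462, range over all alternatives 0.0462 to 0.998). Of these 15 calls, COLGALT1 and DDR1 held in 6, ITGA1 and PXDN in 7, COLGALT2 in 9 and BMP1 and CRTAP in 10 of the 14 alternative settings. BMP1 was lost without any 1 siCTRL library (edgeR adjusted p of 0.0856, 0.0797 and 0.079 without replicates 1, 2 and 3). CRTAP was lost without siCTRL replicate 1 (0.0639) or 2 (0.0647) or siDNp63 replicate 3 (0.0878), and COLGALT2 without siCTRL replicate 1 (0.0763) or 2 (0.0881). COLGALT1 was lost without any 1 siCTRL library (0.127, 0.121 and 0.16) and without siDNp63 replicate 2 (0.106) or 3 (0.127), and PXDN without any 1 siCTRL library (0.126, 0.135 and 0.119) or siDNp63 replicate 2 (0.064). DDR1 was lost without siDNp63 replicate 2 (0.0961) or 3 (0.122) or siCTRL replicate 1 (0.161) or 3 (0.169). ITGA1 had an edgeR adjusted p of 0.0404 with all libraries. The ITGA1 call was lost without siDNp63 replicate 1 (0.0513) or 3 (0.0838) or siCTRL replicate 1 (0.103) or 2 (0.116). Over all alternatives the adjusted p ran up to 0.108 for BMP1, 0.0878 for CRTAP, 0.806 for COLGALT2, 0.299 for COLGALT1, 0.796 for PXDN, 0.698 for DDR1 and 0.232 for ITGA1. Without siCTRL replicate 1, 5 of these genes rose and 3 fell, and without siCTRL replicate 2, 3 fell. CREB3L1, TLL1, ADAMTS2, ADAMTS3, ADAMTS14 and GP6 failed the count filter.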

How the data were processed

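Poly(A) RNA of 3 siDNp63 and 3 siCTRL libraries was read from a single end with a stranded kit. The submitters' processing notes name bcl2fastq 2.17.1.14, kallisto 0.46.2 and hg38. The authors deposited kallisto expected counts per gene, not scaled between libraries, and TPM. Both were used, in all 12 columns. Expected counts were rounded, filtered with edgeR 4.0.16 (filterByExpr, minimum count 10), scaled by TMM and fitted with its quasi-likelihood model on group alone, with Benjamini-Hochberg adjustment over all genes. TPM served levels between genes, since counts grow with transcript length. The study used DESeq2, here an alternative (1.42.0), as was limma 3.58.1. The test was checked on simulated data with far fewer changed genes than were called here, so that check does not cover these conditions. Members with an adjusted p under 0.05 and the 3 of each role with the highest mean normalized counts are given per library. Members and lists were chosen with earlier results of these data known. Symbols and gene coordinates are from GENCODE (GRCh38), and sequences with their intervals and coordinates are from RefSeq. Depth was 35716089 to 52598589 counts per library, so genes of a few counts carry a large counting error.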

Additional observations from a re-analysis of the deposited data

How the results depend on the processing

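The 6 libraries are of 1 cell line, and genes near the count filter are limited by counting error. Over 14 alternatives at an adjusted p under 0.05, COL4A1, COL4A3, COL4A5, COL4A6, COL6A1, COL7A1, COL15A1 and PCOLCE passed in every one, and no called member changed direction. Scaling by library size alone lost P4HA1 and gave 7 higher members, 13 lower and 7 past both thresholds, and 5 other pathway genes higher. With limma on log2(TPM + 0.1), 3 members and 4 other pathway genes were higher, and COL4A4, COL5A2, COL8A1 (adjusted p = 0.0524), COL28A1, P4HA1 and P4HA3 (0.0509) were lost. At an adjusted p under 0.005, 2 members were higher, 2 passed both thresholds, and 4 other pathway genes were higher and 2 lower. Leaving out 1 library at a time gave 6 to 11 members higher, 5 to 9 lower and 3 to 5 past both thresholds, and 5 to 9 other pathway genes higher and 3 to 7 lower. The cause of these changes was not tested. Same-numbered libraries of the groups correlated at -0.0117, 0.0174 and 0.0267 in their deviations from the group means, so the numbers were not taken as pairs, and not every library correlated best with its own number. A replicate block gave 6 members higher, 5 lower and 4 past both thresholds, with 11 of the 14 calls shared.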

Other observations

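P3H2 lies next to TP63 on chromosome 3, with 59451 bases between the end of TP63 (chr3:189631389-189897276, plus strand) and P3H2 (chr3:189956728-190122437, minus strand). The neighbours moved in opposite directions, P3H2 by a log2 fold change of 1.61 and TP63 by -1.52. The adjusted p of P3H2 ran between 2.81e-33 and 0.00562 over the 14 alternatives (edgeR, DESeq2 and limma).

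The transcript length behind the counts, taken from the ratio of counts to TPM and set relative to other genes, differed between siDNp63 and siCTRL for 3 of the type IV genes. It was 0.728 and 0.822 times as long in siDNp63 for COL4A3 and COL4A4, and 1.28 times as long for COL4A6. Counts and TPM gave the same direction for these 3 genes.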
